A study of Mus musculus with 6 samples.

Results

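The 10 genes described here encode the 5 subunits of the transcription factor NF-kB (Nfkb1, Nfkb2, Rel, Rela and Relb) and 5 proteins that restrain or modulate it (Nfkbia, Nfkbie, Nfkbiz, Bcl3 and Tnfaip3). They were taken by symbol from the deposited table of FPKM values (fragments or reads scaled by gene length and library size), which holds 15686 genes, and all 10 were found. The table covers 6 RNA libraries of CD4+ T cells isolated by kit from mouse spleen after haematopoietic stem cell transplantation (HSCT). In 3 libraries, labelled allogeneic, the donor was C57BL/6 and the host Balb/c, and in 3, labelled syngeneic, donor and host were both Balb/c. Every sample also carries the strain entry Balb/c. No drug, genotype or time after transplantation is given, and the labels do not tell if each library is its own animal, so the tests rest on library-to-library spread, which may be technical. The study asked which genes and pathways differ between CD4+ T cells of the allogeneic and the syngeneic setting.

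NF-kB is a family of dimers held inactive in the cytoplasm by IkB proteins. In the classical pathway, signals from the T cell receptor, TNF receptors or Toll-like receptors activate a kinase complex that marks IkB for destruction, and dimers of Rela or Rel with the processed product of Nfkb1 enter the nucleus. In the alternative pathway, a subset of TNF-family receptors stabilises the kinase encoded by Map3k14, which leads to processing of the Nfkb2 product and release of its dimer with Relb. Several members are themselves induced by NF-kB and shut it off again. In T cells the pathway is known for its part in activation, survival and cytokine production.

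The promoters of members hold letters that resemble the binding sequence of the factor, and they are shown because self-regulation is the known feature of this gene family. Sequences are from RefSeq, build GRCm38.p6, and run from 250 bases before to 50 after an annotated start, on the strand of the gene. Windows of this kind were at hand for 7 of the 10 members, all but Nfkb1, Relb and Nfkbiz. The kappaB consensus was taken as GGGRNWYYCC, where R is A or G, W is A or T, Y is C or T and N is any letter. Searched on both strands with overlapping matches merged, it was present in 8 of the 10 windows of these members, from 6 of the 7. Among all 32817 windows 4.504% held it. Some windows of Nfkb2 overlap and share a match. A wider motif, GGG followed after 5 free letters by CC, was present in all 10 windows of these members, but also in 50.8% of all windows. In the 4 windows below, capitals mark matches to the kappaB consensus. Nfkbia (chr12:55492598-55492897, minus strand) has its match 29 bases before the start. Tnfaip3 (chr10:19015361-19015660, minus strand) has one beginning 125 and one 12 bases before it. Bcl3 (chr7:19822706-19823005, minus strand) has one that begins 3 bases into the transcript. Rela (chr19:5637291-5637590, plus strand) has none.
Nfkbia: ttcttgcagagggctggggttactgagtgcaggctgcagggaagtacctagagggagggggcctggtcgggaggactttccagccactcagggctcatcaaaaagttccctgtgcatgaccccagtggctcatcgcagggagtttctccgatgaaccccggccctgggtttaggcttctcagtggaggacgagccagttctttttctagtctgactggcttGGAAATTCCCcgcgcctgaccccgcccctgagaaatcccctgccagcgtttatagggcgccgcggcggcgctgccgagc
Tnfaip3: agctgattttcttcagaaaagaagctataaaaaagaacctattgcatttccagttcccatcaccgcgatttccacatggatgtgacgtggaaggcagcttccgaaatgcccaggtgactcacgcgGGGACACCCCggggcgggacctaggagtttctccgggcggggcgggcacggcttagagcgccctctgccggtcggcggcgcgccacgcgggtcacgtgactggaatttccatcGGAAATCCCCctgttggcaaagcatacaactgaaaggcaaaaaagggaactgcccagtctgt
Bcl3: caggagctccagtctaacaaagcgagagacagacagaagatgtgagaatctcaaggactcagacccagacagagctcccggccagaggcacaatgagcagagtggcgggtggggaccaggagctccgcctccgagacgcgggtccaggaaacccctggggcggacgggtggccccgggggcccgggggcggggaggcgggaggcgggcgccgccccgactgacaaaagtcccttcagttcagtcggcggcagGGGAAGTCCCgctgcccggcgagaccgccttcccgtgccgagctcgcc
Rela: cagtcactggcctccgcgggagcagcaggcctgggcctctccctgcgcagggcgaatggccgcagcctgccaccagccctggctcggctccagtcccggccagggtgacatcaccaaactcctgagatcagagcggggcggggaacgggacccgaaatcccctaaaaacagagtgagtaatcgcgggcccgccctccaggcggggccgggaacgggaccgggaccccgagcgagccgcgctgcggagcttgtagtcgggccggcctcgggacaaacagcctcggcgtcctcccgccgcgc

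Matches in 3 other members are given with 8 flanking bases on each side, capitals again marking the consensus. The stretch of Rel begins 92 bases before its start (window chr11:23770920-23771219, minus strand) and that of Nfkbie 106 bases before it (window chr17:45555450-45555749, plus strand). Nfkb2 has 3 windows, and the stretches shown begin 39 and 11 bases before the start in the first of them (chr19:46304487-46304786, plus strand). A match is a description of letters and not evidence of binding, and the second window of Tnfaip3 at chr10:19011914-19012213 had none.
Rel: taagcagcGGGAAATCCCCccccctcc
Nfkbie: agcaaacaGGGGGATTCCggaggggc
Nfkb2, first: atcgtcacGGGAATTCCCCccctcggg
Nfkb2, second: ggccgaaaGGGGCTTTCCcggctgga

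Some facts of the whole table bear on every value below. The implied depth was 14840100 to 16962100 reads per library. Of 9 genes known to differ between the 2 strains, 8 went against the donor strain named in the labels. The largest difference was that of Ighg2c, with a log2 fold change of −9.12 where the labelled donors would put it higher. Gbp2b (−0.73) went with the labels. The titles and table columns of the libraries labelled allogeneic also carry the letter S, and those labelled syngeneic the letter A. Groups are therefore called by their labels. Whether the labels are swapped was not tested, and if they are, every direction below would turn. All 10 T cell markers were lower in the libraries labelled allogeneic, with a summed level of 871 to 886 against 1657 to 1772 FPKM and Cd4 at 76.2 ± 2.72 against 183 ± 3.40 FPKM (SD, n = 3 each). All 11 macrophage markers were higher, at a sum of 547 to 566 against 127 to 142 FPKM. All 10 red cell markers were higher (413 to 431 against 10.04 to 12.4 FPKM) as were all 5 granulocyte precursor markers (1317 to 1394 against 190.1 to 243 FPKM) and 6 of 8 neutrophil markers (2793 to 2922 against 1071 to 1250 FPKM). Both CD8 markers were lower, at a sum of 1.37 to 1.57 against 13.9 to 15.6 FPKM. All 7 plasma cell markers were lower too (500.0 to 520.0 against 837 to 867 FPKM). Of 4 tested NK cell markers 3 were lower and 1 higher (13.1 to 16.0 against 32.1 to 35.9 FPKM), all 3 tested B cell markers were lower, and of 5 tested dendritic cell markers 2 were higher and 1 lower (19.4 to 20.5 against 8.30 to 9.98 FPKM). Among defining markers, Cd3e stood at 33.0 against 63.5, Cd8a at 0.0743 against 2.89, Csf1r of macrophages at 64.5 against 11.9, Mpo of granulocyte precursors at 674 against 42.6 and Hbb-bs of red cells at 176 against 1.58 FPKM (group means). The part of these cells in the results below was not tested, and in bulk RNA fewer cells of a type and less RNA per cell cannot be told apart.

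In the libraries labelled allogeneic 9 of the 10 members were lower and none was higher, Nfkbie being the exception. The test was limma on log2(FPKM + 1) over the 13235 genes that reached 1 FPKM in 3 or more libraries, with p-values adjusted by the Benjamini-Hochberg method and a threshold of 0.05, and all 10 members passed the filter. By the same test 26.6% of all genes were lower, 40.7% higher and 67.4% changed in either direction. No member was higher at an unadjusted p under 0.05 either, and voom in limma on recovered read counts gave 7 lower and 0 higher of the 7 members it could include. That voom fit called 3388 of all its genes lower and 5086 higher. The median log2 fold change of the members was −0.31, against 0.09 for all genes tested. The groups did not overlap for the same 9 members, where 29.1% of all genes did not overlap and were lower, and 72.5% did not overlap in either direction. The falls were uneven. Bcl3, Tnfaip3 and Nfkbiz fell by 1.20, 0.99 and 0.89 on the log2 scale, whereas Rel, Nfkb1, Rela and Nfkb2 fell by 0.17 to 0.25. Only 3.75% of all genes tested had a lower fold change than Bcl3, against 25.8% for Rela.

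**Figure D1:**
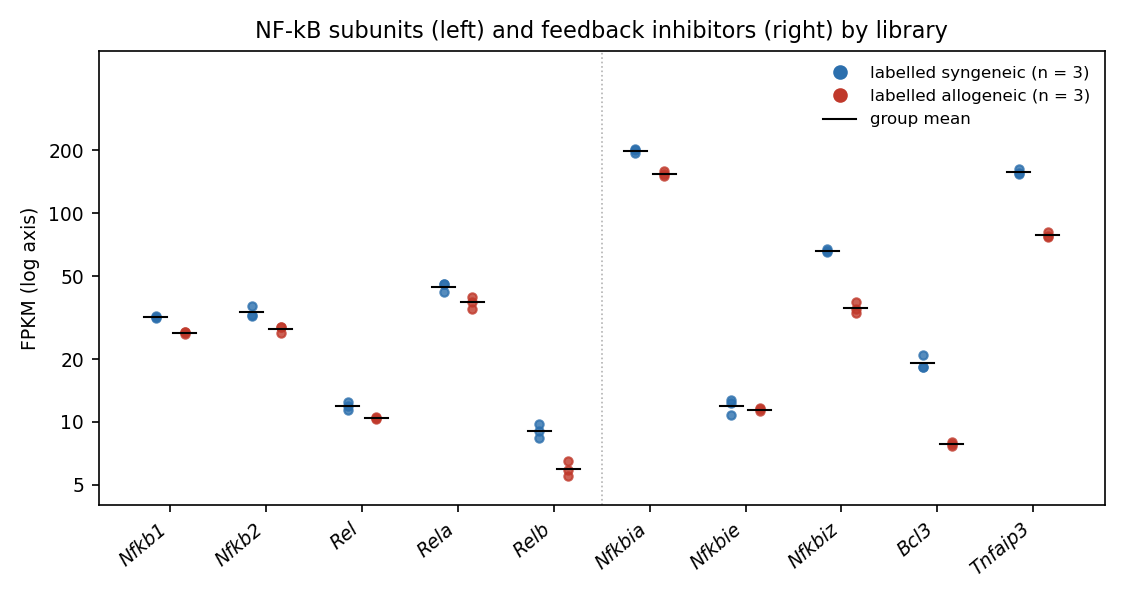
FPKM (log axis) of the 10 members in each library, points being libraries and bars group means. The libraries labelled allogeneic lie below those labelled syngeneic for every member but Nfkbie, and the gap is widest for Bcl3, at 7.81 against 19.2 FPKM.

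Among the classical subunits, Rela, which is the transactivating subunit of the main dimer, had the highest level. It stood at 39.8, 34.9 and 37.5 FPKM in the libraries labelled allogeneic and at 42.1, 45.8 and 45.7 in those labelled syngeneic. All 3 of the former were below all 3 of the latter, but the closest values were only about as far apart as replicates. Rela fell by 0.25 on the log2 scale (SE 0.0580, limma adjusted p = 0.00791). Nfkb1, the partner whose precursor also acts as an IkB protein, stood at 26.4, 26.9 and 26.9 FPKM against 32.1, 31.6 and 31.8. Its replicates were tight and the groups far apart relative to them, with a log2 fold change of −0.24 (SE 0.0299, limma adjusted p = 0.000359). Rel, the subunit best known from lymphocytes and needed for full Il2 induction, stood at 10.6, 10.4 and 10.4 FPKM against 12.5, 11.9 and 11.4. The groups did not overlap, and its fall of 0.17 was the smallest of the 9 (SE 0.0448, limma adjusted p = 0.0118). With equal upper quartiles it stood at −0.27 (limma adjusted p = 0.00170).

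The subunits of the alternative pathway, Nfkb2 and Relb, both fell. Nfkb2, whose precursor is processed after Map3k14 activation, stood at 28.6, 26.8 and 28.4 FPKM in the libraries labelled allogeneic and 32.0, 32.6 and 35.9 in those labelled syngeneic. It fell by 0.25 (SE 0.0530, limma adjusted p = 0.00475), which is the size seen for Rela and Nfkb1. Relb, its dimer partner and itself an NF-kB target, stood at 6.51, 5.87 and 5.48 FPKM against 8.38, 9.06 and 9.82. Relb had the lowest level of the family in both groups and the largest fall among the subunits, 0.54 (SE 0.0782, limma adjusted p = 0.000848).

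Nfkbia encodes the principal IkB protein, which NF-kB induces and which returns Rela dimers to the cytoplasm. It was the most abundant member per length in every library, at 154, 151 and 158 FPKM against 201, 202 and 194. The groups were well separated, and Nfkbia fell by 0.36 (SE 0.0348, limma adjusted p = 0.000108). With quantile normalization its log2 fold change was −0.094 (limma adjusted p = 0.0393). Nfkbie, another cytoplasmic IkB protein, stood at 11.2, 11.5 and 11.7 FPKM against 12.8, 12.4 and 10.8. The lowest library labelled syngeneic lay below all 3 labelled allogeneic. Its log2 fold change was −0.05, with a 95% interval of −0.21 to 0.10 (limma adjusted p = 0.498), so a fall as large as that of Nfkbia is outside the interval.

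The inhibitors with the larger falls act in the nucleus or on ubiquitin chains. Bcl3, a nuclear IkB protein that binds homodimers of the processed Nfkb1 and Nfkb2 products, stood at 7.98, 7.64 and 7.81 FPKM in the libraries labelled allogeneic and at 18.3, 18.4 and 21.0 in those labelled syngeneic. The highest library of the first group was far below the lowest of the second, and the log2 fold change was −1.20 (SE 0.0609, limma adjusted p = 6.13e-06). These values rest on 303 to 321 and on 768 to 772 recovered reads. Nfkbiz, another nuclear IkB protein that is needed for a subset of secondary response genes, stood at 34.9, 33.2 and 37.5 FPKM against 67.4, 66.0 and 65.3. It fell by 0.89 (SE 0.0481, limma adjusted p = 7.77e-06). Tnfaip3 encodes a ubiquitin-editing enzyme that stops signalling upstream of the kinase complex, and it stood at 77.9, 77.3 and 81.4 FPKM against 162, 156 and 153. It fell by 0.99 (SE 0.0371, limma adjusted p = 1.96e-06), and with 9030 to 19899 recovered reads it had the most reads of the 7 members whose reads could be recovered.

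The order of levels differed between the groups in 2 places. In both groups Nfkbia came first, Tnfaip3 second and Relb last. Nfkbiz ranked above Rela in the libraries labelled syngeneic, at 66.2 ± 1.10 against 44.5 ± 2.11 FPKM (SD, n = 3), whereas in those labelled allogeneic the pair overlapped, at 35.2 ± 2.16 and 37.4 ± 2.43. Bcl3 ranked above Nfkbie and Rel in the libraries labelled syngeneic (19.2 ± 1.55 against 11.97 ± 1.06 and 11.95 ± 0.521 FPKM) and below both in those labelled allogeneic (7.81 ± 0.168 against 11.5 ± 0.222 and 10.5 ± 0.116). Nfkb2 and Nfkb1 were neighbours in both groups, with overlapping ranges, and so were Nfkbie and Rel in the libraries labelled syngeneic.

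Ratios within a library do not change when the library is rescaled. Of the 9 ratios to Rela, 4 did not overlap between the groups, though none can pass the test used. The share of all genes whose ratio to Rela did not overlap was not computed. Relative to Rela, Nfkb1 stood at 0.664, 0.770 and 0.719 in the libraries labelled allogeneic and at 0.762, 0.691 and 0.695 in those labelled syngeneic. The 2 sets of values were interleaved. Nfkb2 over Rela (0.719, 0.767 and 0.759 against 0.761, 0.712 and 0.785) and Rel over Rela (0.267, 0.299 and 0.277 against 0.296, 0.261 and 0.250) were interleaved as well. For Bcl3 the ratio was 0.201, 0.219 and 0.208 against 0.435, 0.402 and 0.460. For Tnfaip3 it was 1.96, 2.21 and 2.17 against 3.86, 3.41 and 3.35, and for Nfkbiz 0.878, 0.952 and 1.001 against 1.60, 1.44 and 1.43. Relb over Rela was also lower in all 3 libraries labelled allogeneic, at 0.164, 0.168 and 0.146 against 0.199, 0.198 and 0.215. For each of these 4 ratios the two-sided exact permutation p was 0.1, the smallest that 3 libraries against 3 allow (0.225 after Benjamini-Hochberg adjustment over 9 ratios). Nfkbia over Rela (3.86, 4.33 and 4.23 against 4.77, 4.41 and 4.24) and Nfkbie over Rela (0.282, 0.330 and 0.311 against 0.303, 0.271 and 0.235) overlapped between groups (exact permutation p = 0.2 for each).

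**Figure D2:**
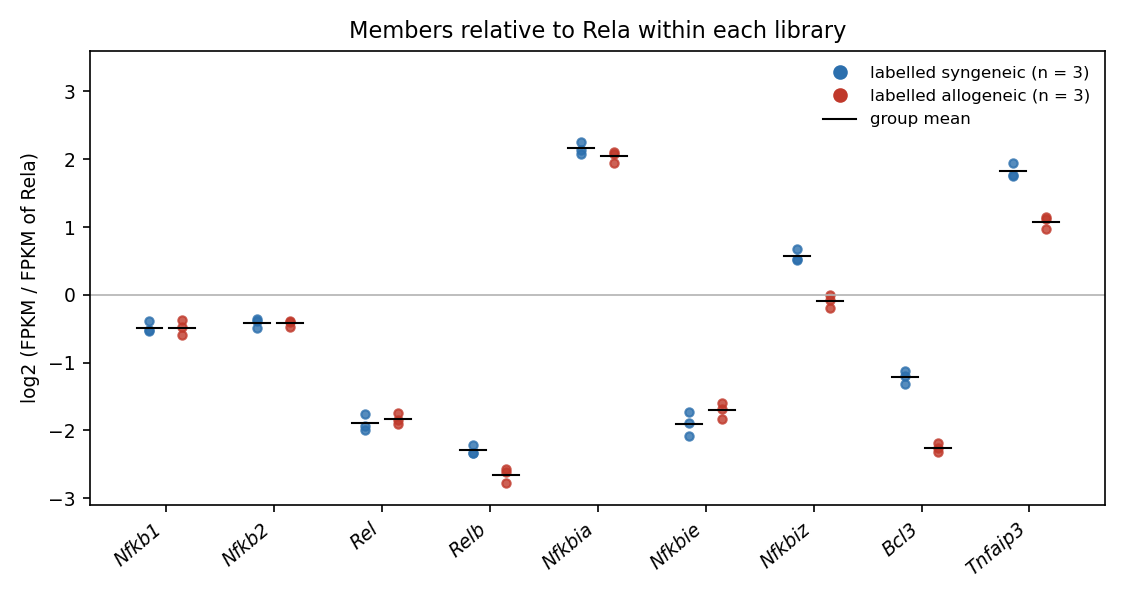
Level of 9 members relative to Rela in the same library, as log2 of the FPKM ratio, points being libraries and bars group means. Nfkb1 and Nfkb2 lie at the same height in both groups, while Bcl3 differs by 1.04, Tnfaip3 by 0.74 and Nfkbiz by 0.66 on the log2 scale.

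A fit over all genes was also made with each library scaled to its own Rela value. It was chosen after the data were seen and tested the same differences again, so it is not separate support for them. Of the other 9 members 4 were lower, where that scaling called 14.3% of all genes lower and 52.6% higher and put the all-gene median at 0.31. They were Bcl3 (−0.96, SE 0.0786, limma adjusted p = 1.04e-05), Tnfaip3 (−0.74, SE 0.0848, 7.95e-05), Nfkbiz (−0.65, SE 0.0804, 0.000124) and Relb (−0.31, SE 0.0823, 0.00840). Nfkbia stood at −0.11 with a 95% interval of −0.30 to 0.07 (limma adjusted p = 0.247). The intervals of Nfkb1 (−0.18 to 0.18), Nfkb2 (−0.17 to 0.15), Rel (−0.14 to 0.26) and Nfkbie (−0.05 to 0.41) included 0, and differences of those sizes from Rela are not excluded. Within the summed FPKM of the 5 subunits Relb made up 5.82%, 5.60% and 5.05% in the libraries labelled allogeneic and 6.59%, 6.92% and 7.29% in those labelled syngeneic (exact permutation p = 0.1). Rela held 33.3 to 35.6% against 33.1 to 34.9%, Nfkb2 25.5 to 26.2% against 24.9 to 26.7%, Nfkb1 23.6 to 25.6% against 23.6 to 25.2% and Rel 9.48 to 9.96% against 8.49 to 9.82%, all overlapping.

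Because T cell markers were lower as a whole, the members were also read after scaling to the geometric mean of the 4 CD3 chain genes, the signalling chains of the T cell receptor. On this scale the all-gene median stood at 1.02, and the fit called 86.2% of genes higher and 4.13% lower. Among the members 8 were higher and none lower, no other tool having been run on that scale. Nfkb1, Nfkb2, Rel and Rela stood between 0.80 and 0.83 and Nfkbie at 0.95, all below the shift of all genes. Nfkbia stood at 0.72, Relb at 0.43 and Nfkbiz at 0.17 (limma adjusted p = 0.0123). Bcl3 (−0.19, SE 0.0861, limma adjusted p = 0.0636) and Tnfaip3 (0.093, SE 0.0429, limma adjusted p = 0.0701) were not past the test. Dividing by lower CD3 levels moves every gene up, so the change of sign of 9 members follows from the scaling.

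**Figure D3:**
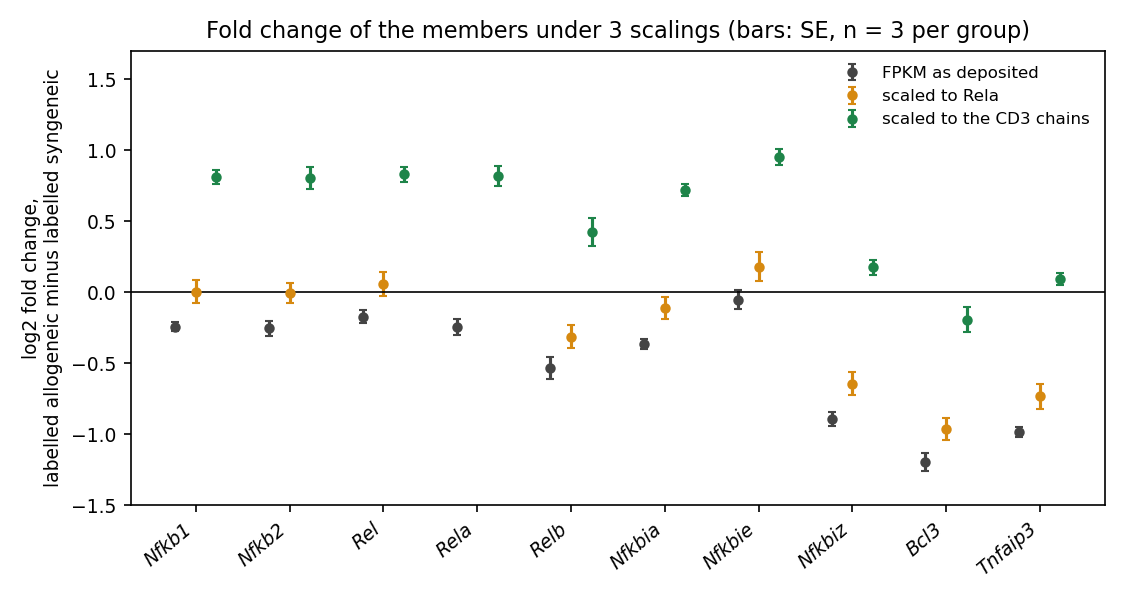
Log2 fold change (labelled allogeneic minus labelled syngeneic) of each member for FPKM as deposited, scaled to Rela and scaled to the CD3 chains, with SE bars (n = 3 per group). Bcl3 lies at −1.20, −0.96 and −0.19 on the 3 scales and Nfkb1 at −0.24, 0.0011 and 0.81.

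Genes elsewhere in the pathway changed in both directions. The 5 further lists held 138 different tested genes, of which 72 were lower and 38 higher, with a median log2 fold change of −0.17. The shares to set beside this count and beside each list below are those of all genes tested. Of these 26.6% were lower and 40.7% higher, with a median of 0.09. Of 18 other IkB proteins and brakes 9 were lower and 3 higher (median −0.16). The largest falls were those of Nlrc3 (−0.70), a cytoplasmic brake on signalling, Pdlim2 (−0.67), a nuclear ubiquitin ligase for Rela, and Zc3h12a (−0.46), an RNase that degrades inflammatory transcripts. Commd1 (0.45), which promotes Rela turnover, and Rnf11 (0.41), a partner of the Tnfaip3 product, rose. Nfkbid, a nuclear IkB protein like Bcl3 and Nfkbiz, stood at 23.7 ± 0.217 against 21.5 ± 1.31 FPKM, and its rise of 0.13 (limma adjusted p = 0.0461) was lost under most other settings, for example with equal upper quartiles (0.033, limma adjusted p = 0.584) and without any single library but the second labelled syngeneic (adjusted p 0.0900 to 0.125). After scaling to the CD3 chains the 3 falls named here turned, to 0.32, 0.31 and 0.57. All 18 genes were higher on that scale, with a median of 0.83. That scaling called 86.2% of all genes higher and put the all-gene median at 1.02.

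Of 34 kinases and adaptors 18 were lower and 5 higher (median −0.17). Prkcq, the T cell kinase that links the receptor to NF-kB, fell by 1.30, and the adaptors Traf1 and Birc3, themselves NF-kB targets, fell by 0.97 and 0.94. Map3k14, the kinase of the alternative pathway, fell by 0.81, at 5.79 ± 0.147 against 10.9 ± 0.788 FPKM. It was picked for its place upstream of Nfkb2 after its value was seen, and scaled to the CD3 chains it stood at 0.15 (limma adjusted p = 0.115). Ube2n (0.40), which builds ubiquitin chains for kinase activation, and Map3k7 (0.26), the kinase they recruit, rose. Traf3 (0.16, limma adjusted p = 0.0358), which keeps Map3k14 low, was no longer past the test with equal upper quartiles (0.066, limma adjusted p = 0.320) or without any single library but the third labelled syngeneic (adjusted p 0.0587 to 0.111). Scaled to the CD3 chains, Traf1 (0.022) and Birc3 (0.087) turned in sign without passing the test, and Prkcq stayed lower at −0.24. On that scale 1 of the 34 was lower and 30 higher, with a median of 0.80, beside 4.13% lower and 86.2% higher among all genes.

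Receptors and ligands that feed the pathway were split. Of 21 receptors 12 were lower and 8 higher (median −0.23). Il18r1 (−1.72), a receptor of type 1 helper cells, and the costimulatory receptors Tnfrsf4 (−1.07) and Cd28 (−1.02) had the largest falls. Ltbr, the lymphotoxin receptor that engages the alternative pathway and is known from myeloid and stromal cells, rose by 1.52, at 17.1 ± 0.706 against 5.33 ± 0.726 FPKM. The Toll-like receptors Tlr2 (1.39) and Tlr4 (1.01) rose too, and their rises stand beside the macrophage marker sum of 547 to 566 against 127 to 142 FPKM, a link that was not tested. Of 14 ligands 6 were lower and 6 higher (median 0.04). Cd70 (−1.61), Tnfsf8 (−1.45) and Cd40lg (−0.75), ligands of activated T cells, fell, and Tnf (1.497), Il18 (1.43) and Tnfsf13 (1.30), which myeloid cells also make, rose. The level of Cd70 was low, at 0.124 ± 0.0436 FPKM in the libraries labelled allogeneic against 2.51 ± 0.944 (SE of its log2 fold change 0.187). Tnfrsf4 (−0.031), Cd28 (0.025) and Cd40lg (0.31) did not stay lower after scaling to the CD3 chains, while Il18r1 (−0.67), Cd70 (−1.23) and Tnfsf8 (−0.39) did. On that scale 1 of the 21 receptors was lower and 14 higher (median 0.82). Of the 14 ligands 2 were lower and 11 higher (median 0.99), where 4.13% of all genes were lower and 86.2% higher.

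Of 51 genes known as NF-kB targets 27 were lower and 16 higher (median −0.20). Csf2, a myeloid growth factor made by T cells, fell by 2.01, the cytokine gene Il10 stood at −1.702 and the activation factor Irf4 at −1.44. Marcks, a membrane protein (2.05), Vcam1, an adhesion molecule of splenic macrophages and also 1 of the 11 macrophage markers (2.02), and the cyclin Ccnd1 (1.72) rose. The falls of Csf2 (−1.19), Il10 (−0.93) and Irf4 (−0.42) kept their sign after scaling to the CD3 chains. They were exceptions, since on that scale 4 of the 51 were lower and 41 higher, with a median of 0.87. Of all genes tested, that scaling called 4.13% lower and 86.2% higher.

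**Figure D4:**
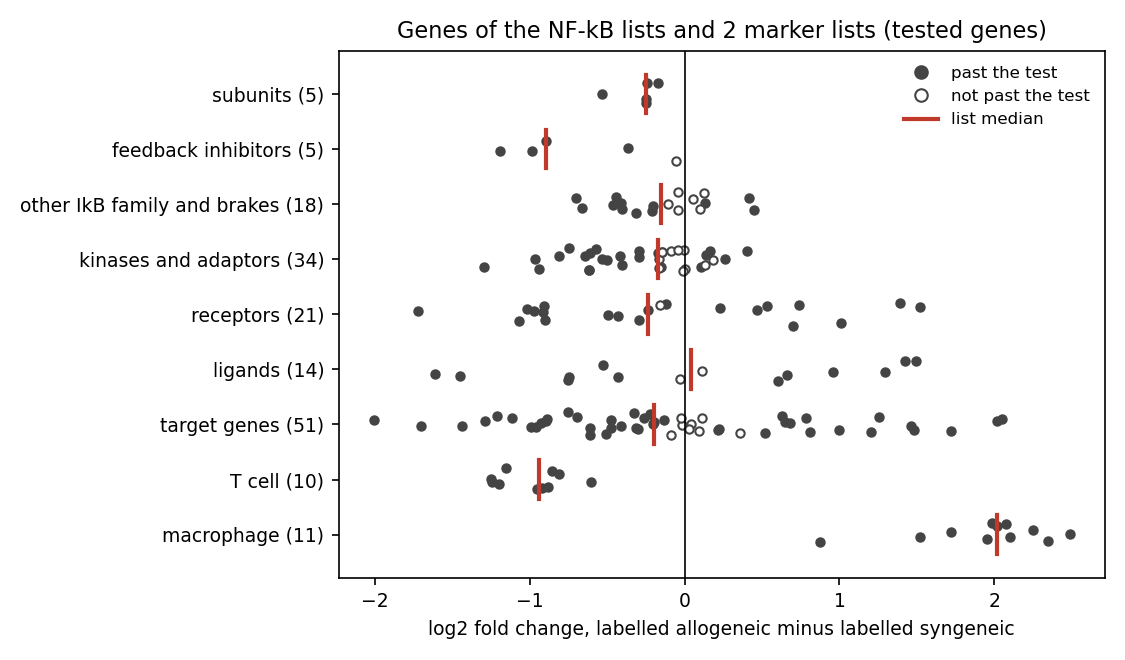
Log2 fold change (labelled allogeneic minus labelled syngeneic) of every tested gene of the NF-kB lists and of the T cell and macrophage markers, filled where past the test, with list medians as bars. Of the subunits 4 lie between −0.17 and −0.25 and Relb at −0.54, and receptors, ligands and target genes reach both sides of 0.

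The genes whose levels ran most like those of the members were found by the distance between centred log2(FPKM + 1) values over the 6 libraries, among 10597 named protein-coding genes. For Tnfaip3 the nearest gene was Slfn5, an interferon-induced gene, at 11.98 to 12.5 against 24.8 to 26.4 FPKM (distance 0.0271). For Nfkbiz it was Il1rl1, a receptor upstream of NF-kB (0.0643), and for Bcl3 Kif21b, a kinesin (0.0956). Nfkbia was nearest to Zfp507 (0.0397), Relb to Cc2d1a (0.0686), Nfkb2 to Galnt12 (0.0401), Nfkb1 to Tpra1 (0.0334) and Rela to Zfp335 (0.0462). Rel was nearest to Rpl12 (0.0215) and Nfkbie to Rps15a (0.0445), both ribosomal protein genes. Within a distance of 0.5 lay 375 genes for Bcl3, 681 for Tnfaip3, 824 for Nfkbiz and 4158 for Rela. The larger the fall of these members, the fewer such genes, so the counts add little to the fold changes. With this many genes so near, a single nearest gene is a description only.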

How the data were processed

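The authors deposited 1 table of FPKM values per gene and library. The file does not say whether fragments or reads were counted. The aligner, counter, build and annotation: not given in the sources used here. limma is named per the submitters' processing notes. Per the labels' protocols, ribosomal RNA was depleted before library construction with a kit whose strand handling is not given. Exons of Bcl3 share 161 bases with the antisense gene Gm16175, at most 1.66 FPKM, and those of Nfkb2 share 299 bases with Psd, at most 3.43 FPKM, and 531 bases with AC114539.1, whose level was not analysed here. Both lie on the strand opposite to Nfkb2, and reads in these stretches cannot be told apart.

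Multiplying FPKM by the length of a gene's merged exons (GENCODE M21, GRCm38) and dividing by one fitted unit per library gave whole reads, to within 0.05 reads, for 14570 of 15686 genes (92.9%) in all 6 libraries. This gave the depth and recovered reads, among them those of 7 members. Replicates of a group were not identical and differed by 2.38 to 3.39 times the counting error in median chi-square, so each counted once. Recovered reads are not marked for amplification copies.

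A linear model with moderated variances and a trend (limma 3.58.1, R 4.3.3) was fitted to log2(FPKM + 1) of 13235 genes, so changes of low genes are understated. The step was tested on simulated reads, and with no change it called 0 genes. With 200 of 12083 genes changed it recovered 52% of 1.25-fold and 92% of 1.5-fold changes, and 7.568% of its calls were unchanged genes. Far fewer genes were changed there than the 67.4% called in these data. Ratios and shares used two-sided exact permutation tests. From each further list the rule named up to 3 falls and 3 rises of largest size whose groups did not overlap. The members, lists and alternatives were chosen with earlier results of these data known. Protein motifs were not analysed here. Plots used Python 3.11.15 and matplotlib 3.10.9. Same-numbered libraries did not deviate together (correlation −0.03, 0.02 and −0.05 over genes).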

Additional observations from a re-analysis of the deposited data

How the results depend on the processing

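Of the 10 members, 9 remained lower and none was higher with quantile normalization, equal upper quartiles, the median difference subtracted, immunoglobulin and other cell genes left out, no filter or one of 5 FPKM, pseudocounts of 0.1 and 5, no variance trend and without each library in turn. Lower and higher counts of all genes were 3525 and 5389 in the main fit. They were 4298 and 4673 with quantile normalization, and 4332 and 4563 with equal upper quartiles. Subtracting the median difference gave 4367 and 4556, and leaving out immunoglobulin and other cell genes 4019 and 4591. No filter gave 3818 and 5760, and one of 5 FPKM 2570 and 3945. Pseudocounts of 0.1 and 5 gave 3505 and 3538 lower, and no variance trend 3507. Nfkbia was weakest with quantile normalization (−0.09, limma adjusted p = 0.0393). The replicate number did not pair the libraries, and with the replicate block 9 members stayed lower, with 3443 of all genes lower and 5230 higher. Leaving out 1 library gave 3033 to 3277 genes lower and 4467 to 5181 higher. Scaling to Rela left 4 members lower, with 1887 of all genes lower and 46 of the 138 other pathway genes lower, and turned Nfkb1 to 0.0011, Rel to 0.058 and Nfkbie to 0.18. Scaling to the CD3 chains left 0 members lower and 8 higher, with 546 of all genes lower and 11404 higher, and 8 other pathway genes lower and 114 higher. It turned Nfkb1 (0.81), Nfkb2 (0.80), Rel (0.83), Rela (0.82), Relb (0.43), Nfkbia (0.72), Nfkbie (0.95), Nfkbiz (0.17), Tnfaip3 (0.093), Nlrc3 (0.32), Pdlim2 (0.31), Zc3h12a (0.57), Traf1 (0.022), Birc3 (0.087), Cd28 (0.025) and Cd40lg (0.31). These 2 scalings divide by genes that were themselves lower, which moves every gene up. Without 1 library in turn, the difference in log2 ratio to Rela ran from −1.09 to −0.998 for Bcl3, −0.78 to −0.68 for Tnfaip3, −0.70 to −0.61 for Nfkbiz and −0.40 to −0.30 for Relb. Depth limits Relb and Bcl3 most, at 334 to 411 and 303 to 321 reads in the libraries labelled allogeneic.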
